A study of Mus musculus with 8 samples.

Results

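Messenger RNAs of 10 regulators of the small GTPase Ras were compared between 2 lines of RAW264.7, a mouse macrophage-like line derived from a tumour induced by Abelson leukaemia virus. The members were taken by name from the 55450 genes of the count table: the 6 GTPase-activating proteins Rasal3, Rasa1, Rasa2, Rasa3, Rasa4 and Nf1, and the 4 exchange factors Kndc1, Rasgrp3, Sos1 and Sos2. The set was selected on the measured difference between the lines, in which Rasal3 and Kndc1 move in opposite directions, so that difference is given for the 10 members as a description, and no p-value of theirs in it is used as evidence. All 10 matched 1 gene each in GENCODE release M21, on the GRCm38 build. Both lines were made from RAW264.7 cells, 1 with a non-silencing shRNA (shNS) and 1 with an shRNA against Dis3l2 (shDis3l2), an exoribonuclease of uridine-tailed RNAs. Of each line, 3 libraries came from cells kept with doxycycline at 1 µg/mL and 1 library from cells kept without it, all harvested after 4 days of culture. The labels do not say whether a line was 1 clone or a pool, nor whether replicates were separate cultures, so p-values measure the spread between these libraries, which may be technical.

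Ras relays signals from growth factor and immune receptors when it is bound to GTP. Exchange factors load Ras with GTP, and GTPase-activating proteins (GAPs) speed the hydrolysis of that GTP and so switch Ras off. In macrophages the pathway carries signals from the receptor of colony-stimulating factor 1 and from Fc receptors to the kinases RAF, MEK and ERK.

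Levels are CPM, a gene's share of a library's counts on a fixed scale, scaled by TMM over all 8 libraries, which held a total of 30341823 to 45557804 counts per library. Dis3l2 itself stood at 33.03, 28.6 and 22.02 CPM in shNS replicates 1, 2 and 3 with doxycycline, and at 12, 13.5 and 14.9 CPM in shDis3l2, a fall by 1.05 on the log2 scale that passed edgeR's test (adjusted p = 0.0216). In the single libraries without doxycycline it was at 29.6 CPM in shNS and 28.6 CPM in shDis3l2. The shNS libraries were unlike each other: replicate 2 with doxycycline correlated with the shNS library without doxycycline at r = 0.985 across genes and with replicates 1 and 3 at 0.940 and 0.945. All 8 macrophage markers examined had at least 10 counts in every library, and their summed level ran from 7771 to 11710 CPM in shNS and from 6662 to 9555 CPM in shDis3l2 with doxycycline. The markers did not move one way. With doxycycline Adgre1, which encodes F4/80, was at 63.1 to 121 CPM in shNS and 7.09 to 25.9 CPM in shDis3l2. Its log2 fold change was -2.70 (edgeR adjusted p = 0.0368). Csf1r (1297 to 1844 and 2168 to 2236 CPM) and Itgam (195 to 270 and 286 to 412 CPM) were higher in shDis3l2 without overlap. Neither of these passed (edgeR adjusted p = 0.134 and 0.139), and the remaining markers overlapped between the lines. None of 8 T and NK cell, 5 B cell, 7 neuronal and 6 fibroblast or epithelial markers reached 10 counts in any library. Of 5 neutrophil markers only S100a8 did, at 19.1 CPM in shNS replicate 2 and 40.9 CPM in shNS without doxycycline, against at most 0.403 CPM elsewhere. The part of Adgre1 and S100a8 in the results was not tested.

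Rasal3 was close to absent in shNS and expressed in every shDis3l2 library. Rasal3 (ENSMUSG00000052142, protein coding, chromosome 17, 32390659 to 32403583, minus strand) encodes a GAP of the SynGAP family that is found in blood cells and is known for its role in T cells. With doxycycline it had 1, 2 and 5 counts in shNS replicates 1, 2 and 3, which is 0.0315, 0.0585 and 0.144 CPM. The shDis3l2 replicates held 851, 655 and 622 counts, or 19.5, 19.1 and 18.4 CPM. The groups did not overlap, and the shDis3l2 libraries were close to each other (19.0 ± 0.551 CPM, SD, n = 3). In bulk RNA, fewer cells of a type and less RNA per cell cannot be told apart. The ratio of the summed counts was 239 (95% counting interval 121 to 555), and the fitted log2 fold change was 7.85 (SE 0.38). Without doxycycline there were 7 counts in shNS (0.192 CPM) and 705 in shDis3l2 (17.9 CPM), a ratio of 93.2 (45.02 to 233). In the same pair of libraries, 1 per line, the Dis3l2 ratio was 0.965 (0.887 to 1.05). The cause of the Rasal3 difference was not tested.

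Kndc1 showed the reverse. Kndc1 (ENSMUSG00000066129, protein coding, chromosome 7, 139894696 to 139941537, plus strand) encodes a protein with KIND domains and a Ras exchange factor domain, best known from the dendrites of neurons. With doxycycline it had 4940, 2574 and 3473 counts in shNS replicates 1, 2 and 3, or 156, 75.3 and 99.96 CPM. The shDis3l2 replicates had 2, 1 and 0 counts. The groups did not overlap, and replicate 1 was the highest of the shNS libraries. The shNS level exceeded that of shDis3l2 by a ratio of summed counts of 4069 (1392 to 19730). Without doxycycline shNS had 2798 counts (76.8 CPM), next to replicate 2 with doxycycline, and shDis3l2 had 0. Set against a floor of 3 counts in that library, the shDis3l2 level was at least 1007-fold lower, and the exact 95% interval of the count ratio, which is two-sided and so wider, begins at 819-fold. The neuronal marker list summed to at most 0.0585 CPM in shNS with doxycycline, with Snap25, Syt1 and Gad1 at 0 in all 8 libraries. Intervals and floors cover counting error only.

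The 250 bases before the start sites of the 2 genes that switch are shown because these genes go from a few counts in 1 line to clear expression in the other. RefSeq's promoter table for GRCm38.p6 matched 10 of 10 members, and the windows lie at chr17:32403583-32403832 on the minus strand for Rasal3 and chr7:139894446-139894695 on the plus strand for Kndc1. They are written 5′ to 3′ with CpG dinucleotides in capitals.
Rasal3: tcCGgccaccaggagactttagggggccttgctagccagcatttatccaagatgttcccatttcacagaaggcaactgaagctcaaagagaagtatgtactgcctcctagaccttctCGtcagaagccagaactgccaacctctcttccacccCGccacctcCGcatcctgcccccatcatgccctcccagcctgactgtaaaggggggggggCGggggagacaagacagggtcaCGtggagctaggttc
Kndc1: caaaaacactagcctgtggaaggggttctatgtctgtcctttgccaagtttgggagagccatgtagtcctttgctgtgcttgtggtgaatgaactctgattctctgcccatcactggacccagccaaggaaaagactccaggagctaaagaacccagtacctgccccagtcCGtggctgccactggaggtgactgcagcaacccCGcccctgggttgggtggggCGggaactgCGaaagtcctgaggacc
Rasal3 held 6 CpGs in this window and Kndc1 4. Among 32851 annotated start sites, 53.7% held as many or fewer than Rasal3 and 44.4% as many or fewer than Kndc1. Of the other 8 members Rasgrp3 also held 4, and the remaining 7 held from 13 (Rasa4) to 47 (Sos2). The E box CACGTG occurred once in the Rasal3 window, where it overlaps the last CpG, and in 6.02% of all windows, and in no other member. The RUNX core TGTGGT, searched on both strands, occurred once in the Kndc1 window, not in that of Rasal3, and in 14.05% of all windows, and among the other members in Rasa1 and Sos1. Neither window held the ETS core GGAAGT (19.7% of all windows) or TATAAA (12.4%). These matches describe the letters only.

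The Rasal3 locus held a second RNA with the same pattern. CT485616.1, an antisense gene (ENSMUSG00000117872, chromosome 17, 32396778 to 32412926, plus strand) that overlaps Rasal3 on the other strand, had 0 counts in all 4 shNS libraries. It had 10, 18 and 17 counts in shDis3l2 with doxycycline and 13 without. The kit marks strand, but the strand setting of the counting is not given in the sources used here, so a share of these reads may come from Rasal3 itself.

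None of the 6 tested genes among the 12 nearest to Rasal3 and Kndc1 passed (edgeR adjusted p at least 0.126). Beside Rasal3, Wiz, a zinc finger partner of histone methyltransferases, was at 55.9 ± 0.512 CPM (SD, n = 3) in shNS and 70.5 ± 0.726 CPM in shDis3l2 with doxycycline. Its groups did not overlap, and its log2 fold change of 0.33 (SE 0.11, edgeR adjusted p = 0.126) did not pass. Akap8, which encodes a nuclear anchor of protein kinase A, was at 107 ± 0.518 and 103 ± 9.28 CPM, and its relative Akap8l at 21.1 ± 10.4 and 16.3 ± 2.59 CPM. On the other side Pglyrp2 had no count, Cyp4f39 was at 0.0315 to 0.432 CPM in shNS against 0 in every shDis3l2 library, and Cyp4f17 was at 0.937 ± 0.218 and 0.839 ± 0.126 CPM. Beside Kndc1, Nkx6-2 and Adgra1 had no count in any library, and Cfap46 had at most 2 counts. Utf1 had 1, 4, 4 and 2 counts in the shNS libraries and 0 in shDis3l2. The uncharacterised 6430531B16Rik was at 1.73 ± 0.180 and 1.87 ± 0.234 CPM. Adam8, a membrane protease of myeloid cells, was at 141, 136.5 and 566 CPM in shNS replicates 1, 2 and 3 and 167, 154 and 233 CPM in shDis3l2, with overlapping groups. Within 5 Mb of Rasal3 the 226 genes tested had a median log2 fold change of 0.15, with 3 called higher and 4 lower by edgeR. The 88 within 5 Mb of Kndc1 had a median of -0.03, with 2 called higher and 4 lower. Over all 13752 genes tested the median was -0.00, and edgeR called 2.13% higher and 4.01% lower.

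**Figure D1:**
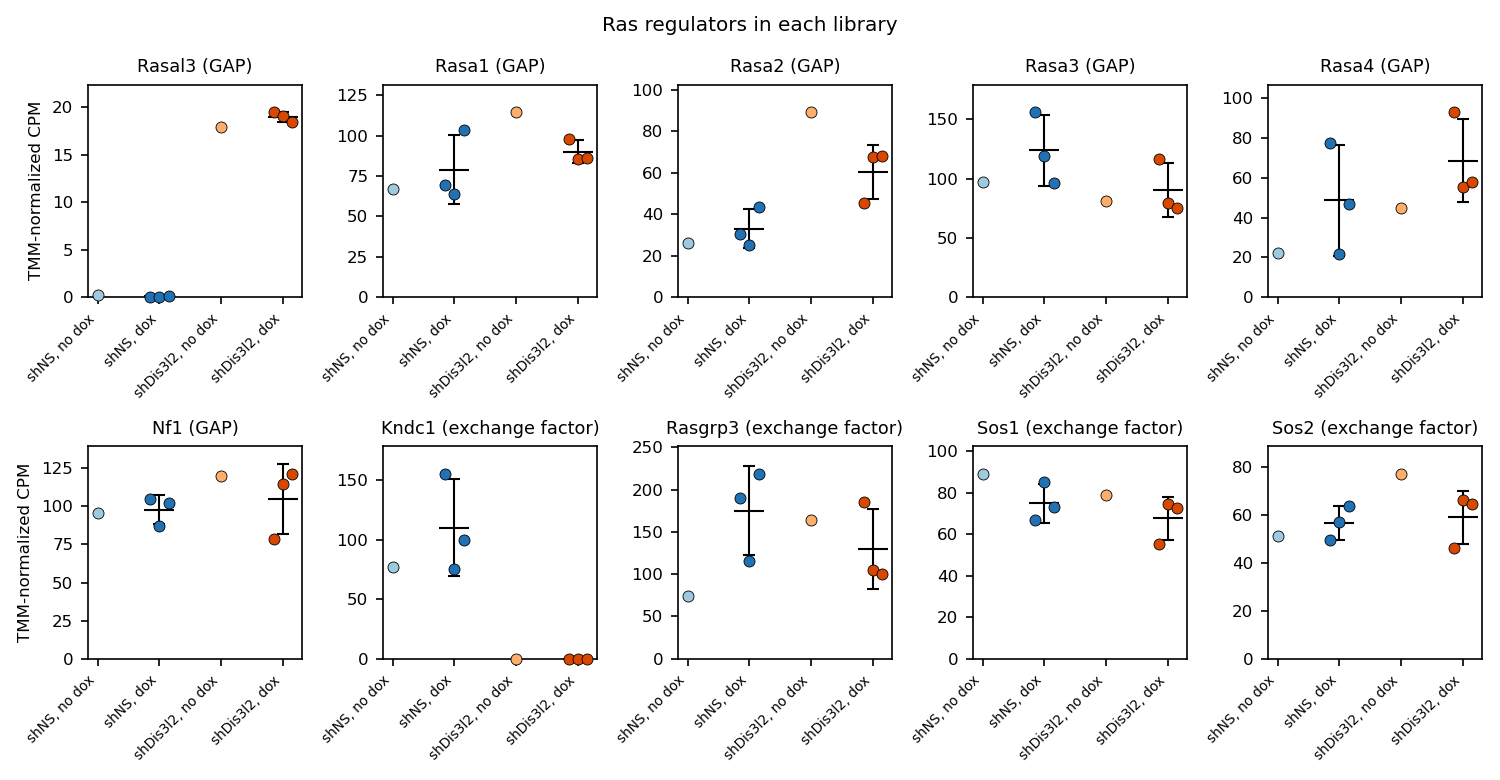
TMM-normalized CPM of each of the 10 Ras regulators (linear axes from 0), by line and doxycycline (dox). Points are libraries, horizontal bars and whiskers the mean and SD of 3 libraries. Rasal3 is near 0 in the 4 shNS libraries and at 17.9 to 19.5 CPM in the 4 shDis3l2 libraries, Kndc1 is at 75.3 to 156 CPM in shNS and near 0 in shDis3l2, and of the other members only Rasa2 has groups with doxycycline that do not overlap.

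Of the 10 members, 1 (Rasal3) was called higher and 1 (Kndc1) lower in shDis3l2 with doxycycline, where edgeR called 6.14% of the 13752 genes tested (2.13% higher and 4.01% lower). At an unadjusted p under 0.05 there were 3 members, against 20.8% of all genes tested, and the groups did not overlap for 3 members, against 27.7%. Of these 3, 2 were higher in shDis3l2 (13.2% of all genes) and 1 was lower (14.6%). Both members were known to differ when the set was put together, so nothing is read from these counts. The median log2 fold change of the 10 members was 0.08.

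Rasa2 was the third member whose groups did not overlap. It belongs to the GAP1 family, whose members carry C2 and PH domains, and is known as a brake on signalling in T cells. It was at 30.7, 25.0 and 43.6 CPM in shNS replicates 1, 2 and 3, and at 45.4, 67.5 and 68.1 CPM in shDis3l2 with doxycycline. The lowest shDis3l2 library (replicate 1) lay just above the highest shNS library (replicate 3), and the log2 fold change was 0.87 (SE 0.25). Without doxycycline Rasa2 stood at 26.2 CPM in shNS and 89.2 CPM in shDis3l2, the highest of the 8 values and a ratio of 3.40 (3.17 to 3.66). The 45 genes tested within 5 Mb of Rasa2 on chromosome 9 had a median log2 fold change of -0.26, beside -0.00 over all genes tested. Of the 45, 12 were positive.

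The other GAPs overlapped between the lines with doxycycline. Rasa1, the p120 GAP that docks on phosphorylated receptors, was at 69.3, 64.0 and 103 CPM in shNS and 98.1, 85.8 and 85.8 CPM in shDis3l2 (log2 fold change 0.19, SE 0.20). Its 2 lowest libraries with doxycycline were both shNS, but the highest was shNS replicate 3. Rasa3, a GAP that acts on Rap1 as well as Ras, was at 156, 119 and 96.5 CPM in shNS and 116, 79.5 and 75.1 CPM in shDis3l2 (-0.45, SE 0.24). It was the one GAP with a negative fold change, and replicate 1 was the highest library in each line. Rasa4, a GAP that is brought to the membrane by calcium, had the widest spread of these within shNS relative to its mean, at 77.6, 21.7 and 47.0 CPM in replicates 1, 2 and 3. It was at 93.0, 55.2 and 57.9 CPM in shDis3l2 (0.50, SE 0.46). Neurofibromin, encoded by Nf1, was at 105, 86.9 and 102 CPM in shNS and 78.4, 115 and 121.5 CPM in shDis3l2 (0.10, SE 0.19). Here shDis3l2 replicate 1 was the lowest of the 6 libraries and replicates 2 and 3 the highest. Without doxycycline, the shDis3l2 to shNS ratio was 1.71 (1.63 to 1.80) for Rasa1, 0.831 (0.792 to 0.872) for Rasa3, 2.01 (1.85 to 2.19) for Rasa4 and 1.26 (1.202 to 1.31) for Nf1. Rasa4 in shNS replicate 2 was within 1 CPM of the shNS library without doxycycline, at 22.3 CPM. Evi2a and Evi2b lie within Nf1 on the opposite strand and Ccnh overlaps the end of Rasa1, so that some reads of these loci could be shared if strand was not used.

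Among the exchange factors Rasgrp3 had the highest mean CPM and the largest SD in each line with doxycycline. It is activated by diacylglycerol and loads both Ras and Rap1. With doxycycline it was at 190.4, 116 and 219 CPM in shNS replicates 1, 2 and 3 and at 185, 105 and 99.6 CPM in shDis3l2. The groups overlapped (log2 fold change -0.43, SE 0.32). Without doxycycline it was at 73.5 CPM in shNS, the lowest of the 8 values, and 164 CPM in shDis3l2, a ratio of 2.23 (2.14 to 2.34). The 2 values differ in sign, but the first comes from overlapping groups and the second from 1 library per line. Sos1 and Sos2, the exchange factors that the adaptor Grb2 carries to activated receptors, had fold changes below their SE. Sos1 was at 66.7, 85.3 and 73.0 CPM in shNS and 55.5, 74.6 and 72.7 CPM in shDis3l2 (-0.15, SE 0.17). Sos2 was at 49.5, 56.8 and 63.5 CPM in shNS and 46.2, 66.1 and 64.5 CPM in shDis3l2 (0.06, SE 0.18). Replicate 1 was the lowest library of each line for both genes. Without doxycycline the ratio was 0.887 (0.844 to 0.932) for Sos1 and 1.51 (1.43 to 1.60) for Sos2.

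In the pair of libraries without doxycycline, 4 of the 10 members were at least 2-fold higher in shDis3l2 (Rasal3, Rasa2, Rasa4 and Rasgrp3), 1 was at least 2-fold lower (Kndc1), and 5 lay within 2-fold. Over all 15250 genes 20.8% were past 2-fold, 9.26% higher and 11.6% lower. The median log2 ratio was 0.68 for the members and -0.01 for all genes, from 1 library per line and with no replicate check. Rasal3 and Kndc1 were known to differ between these same lines when the set was put together. Nothing is therefore read from these counts or medians either.

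**Figure D2:**
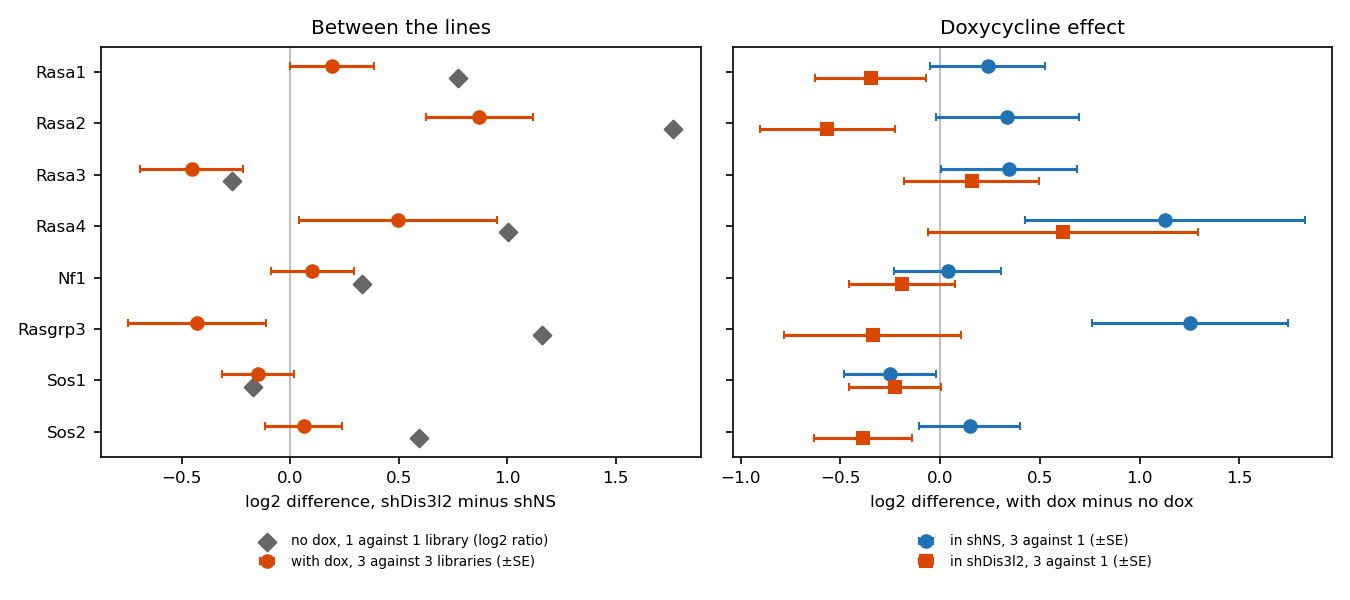
Log2 differences (horizontal axes) of the 8 members other than Rasal3 and Kndc1. Left, shDis3l2 minus shNS with doxycycline (circles, ±SE, 3 against 3 libraries) and without it (diamonds, 1 against 1). Right, the effect of doxycycline in shNS (circles) and in shDis3l2 (squares), ±SE, 3 against 1. Rasgrp3 lies at -0.43 with doxycycline and 1.16 without, and has the largest doxycycline effect in shNS (1.25), and Rasa2 is positive in both conditions (0.87 and 1.77).

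Seen per family, Rasal3 added a small share to the GAPs and Kndc1 took a larger one from the exchange factors. Levels of different genes were compared per kilobase of exon (RPKM, TMM-scaled). Rasal3 made up 6.57, 7.79 and 7.52% of the summed RPKM of the 6 GAPs in shDis3l2 replicates 1, 2 and 3, and 6.73% without doxycycline. In shNS its share was at most 0.101%. Kndc1 made up 24.5, 16.9 and 15.3% of the summed RPKM of the 4 exchange factors in shNS with doxycycline and 21% without, against at most 0.0101% in shDis3l2. The summed level of the exchange factors was 54.0 ± 10.7 RPKM (SD, n = 3) in shNS and 35.5 ± 5.91 RPKM in shDis3l2 with doxycycline. These sums overlapped, at 41.6 RPKM in shNS replicate 2 and 42.3 RPKM in shDis3l2 replicate 1. They include Kndc1, on whose difference the set was selected. The summed level of the GAPs was 49.9 ± 8.55 and 53.5 ± 6.01 RPKM. Without doxycycline the order of the exchange factor sums was the opposite, at 34.2 RPKM in shNS and 44.6 RPKM in shDis3l2, where Rasgrp3 alone was at 12.6 and 28.1 RPKM.

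Rasgrp3 and Rasa3 were the 2 highest members per length in both lines with doxycycline. In shNS they stood at 29.97 ± 9.08 and 24.3 ± 5.90 RPKM (SD, n = 3), followed by Rasa1 at 10.8 ± 2.92 and Kndc1 at 10.3 ± 3.84 RPKM. These neighbouring pairs did not differ beyond their spread. Sos1 (7.08 ± 0.892), Sos2 (6.65 ± 0.823), Rasa4 (6.51 ± 3.74) and Nf1 (6.18 ± 0.606) formed a group with overlapping values, and Rasa2 (2.09 ± 0.600) and Rasal3 (0.0159 ± 0.0120 RPKM) came last. In shDis3l2 the order was Rasgrp3 (22.2 ± 8.17), Rasa3 (17.7 ± 4.43), Rasa1 (12.3 ± 0.968), Rasa4 (9.18 ± 2.82), Sos2 (6.92 ± 1.30), Nf1 (6.62 ± 1.47) and Sos1 (6.38 ± 0.995 RPKM). Rasal3 at 3.88 ± 0.112 and Rasa2 at 3.80 ± 0.814 RPKM could not be separated there. Kndc1 came last, at 0.00233 ± 0.00216 RPKM. Rasa3 made up 51.9, 55.5 and 39.0% of the summed RPKM of the GAPs in shNS replicates 1, 2 and 3, and 37.8, 31.2 and 29.5% in shDis3l2. These shares did not overlap, but the sum includes Rasal3, on whose difference the set was selected. Rasal3 lowers the share of every other GAP in shDis3l2, so the lack of overlap is not read as a result about Rasa3. Without length correction its shares overlapped, at 24.6 to 37.5% in shNS and 17.6 to 25.8% in shDis3l2.

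**Figure D3:**
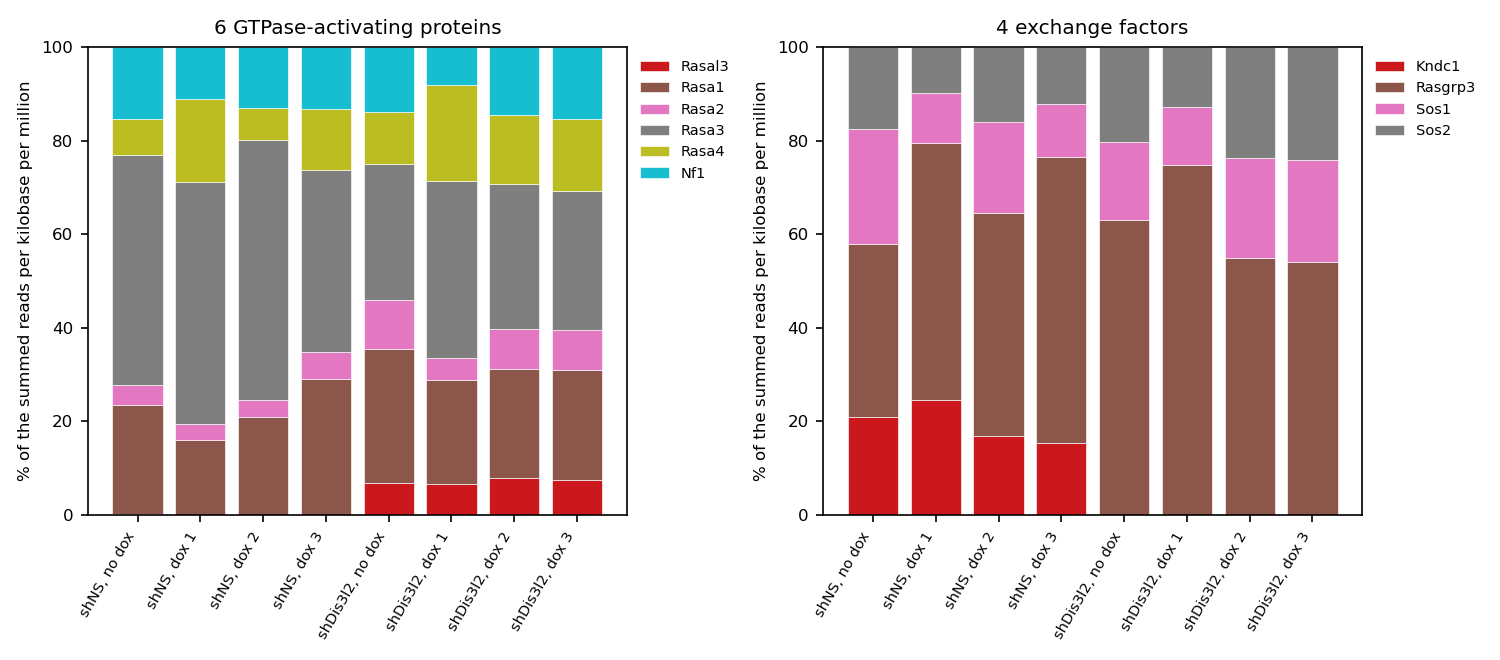
Share of each gene in the summed RPKM of the 6 GAPs (left) and of the 4 exchange factors (right), 1 bar per library, in percent from 0 to 100. Rasal3 (red, left) is visible only in the 4 shDis3l2 libraries at 6.57 to 7.79%, and Kndc1 (red, right) only in the 4 shNS libraries at 15.3 to 24.5%.

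The effect of doxycycline within each line was not used to choose the members and was tested over all 8 libraries, 3 against 1 in each line. By edgeR's quasi-likelihood test with Benjamini-Hochberg adjustment 0 of 10 members passed in shNS, 0 in shDis3l2 and 0 for the difference between the 2 effects, and so did 0 of 15250 genes in each. At an unadjusted p under 0.05 there were 646 genes (4.24%) in shNS, 504 (3.3%) in shDis3l2 and 577 (3.78%) for the difference, with 1, 0 and 1 member among them. DESeq2 called 74, 61 and 37 genes in these comparisons, with no member among them in shNS. In the last 2 comparisons it called none of the 9 members other than Kndc1, whose DESeq2 result there is not given. The member in question was Rasgrp3, whose log2 difference was 1.25 (SE 0.49, edgeR unadjusted p = 0.0388, adjusted p = 0.9898) in shNS, where all 3 libraries with doxycycline lay above the one without. In shDis3l2 it was -0.34 (SE 0.45), where 1 library lay above and 2 below, and the difference between the lines was -1.59 (SE 0.65, edgeR unadjusted p = 0.0447, adjusted p = 1.0). Without shNS replicate 2, the library that resembled untreated shNS, 544 genes were called in shNS by edgeR, and Rasgrp3 came to 1.46 (adjusted p = 0.117). Leaving out a library because it resembles the untreated one can by itself enlarge the contrast, so nothing is read from that fit. Over the 6 fits that left out 1 library the Rasgrp3 effect in shNS ran from 1.05 to 1.46. For Rasa4 the effect was 1.13 (SE 0.70) in shNS and 0.62 (SE 0.68) in shDis3l2, and for Kndc1 in shNS 0.52 (SE 0.44). The value of Kndc1 in shDis3l2 rests on 3 counts and is not given. Rasal3 was at 0.08 (SE 0.37) in shDis3l2, and its value in shNS rests on 1 to 7 counts per library. With these 3 against 1 designs a missed threshold does not show that the members were unaffected.

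The rest of the pathway was examined in 62 other genes listed by function, of which 52 had enough counts to be tested between the lines with doxycycline. By edgeR 1 rose and 3 fell, which is 7.69% beside the 6.14% of all genes, and the median over the 52 genes was 0.01 (log2), beside -0.00 for all genes. Spry2, a Sprouty protein that restrains Ras and ERK signalling and is itself induced by it, was at 0.567, 1.02 and 0.518 CPM in shNS and 5.60, 7.82 and 7.77 CPM in shDis3l2. It rose by 3.32 on the log2 scale (SE 0.35, edgeR adjusted p = 0.00431), and was at 0.961 and 10.9 CPM without doxycycline. The scaffold Gab2, which recruits the phosphatase Shp2 and PI3 kinase, was at 47.3, 49.2 and 33.5 CPM in shNS and 26.7, 19.8 and 20.4 CPM in shDis3l2. It fell by 0.96 on the log2 scale (SE 0.20, edgeR adjusted p = 0.0367), and was at 33.3 and 18.3 CPM without doxycycline. Its relative Gab3 fell by 1.53 (SE 0.35, edgeR adjusted p = 0.0483), from 2.68, 2.28 and 1.44 CPM to 0.846, 0.613 and 0.739 CPM, and was at 2.55 and 0.610 CPM without doxycycline. These groups did not overlap for Spry2, Gab2 or Gab3. Of the scaffolds and inhibitors, 14 were tested.

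Among 11 Ras and Rap GTPases, Rap2a, a Rap protein of the cell membrane and recycling endosomes, was at 27.5, 18.9 and 40.8 CPM in shNS and 6.70, 8.70 and 9.90 CPM in shDis3l2. Rap2a fell by 1.78 on the log2 scale (SE 0.30, edgeR adjusted p = 0.0181). The pair of libraries without doxycycline had 11.4 CPM of it in shNS beside 11.9 CPM in shDis3l2 (ratio 1.05, 0.919 to 1.202), and the difference of its doxycycline effects did not pass (-1.86, SE 0.60, edgeR unadjusted p = 0.0169, adjusted p = 1.0). The calls of Rap2a, Gab2 and Gab3 were each lost without shDis3l2 replicate 1, 2 or 3, and those of Gab2 and Gab3 also without shNS replicate 1 or 2 (edgeR adjusted p up to 0.225). Gab3 was also lost without a low-count filter (0.0592) and with all 8 libraries in the fit (0.0557), while Spry2 passed in each of these fits.

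By edgeR no gene passed among 3 other GAPs, 4 other exchange factors or 8 RAF, MEK and ERK kinases and scaffolds. None passed among 12 ERK target genes. The exchange factors here were not all ones that load Ras itself. An unadjusted edgeR p under 0.05 was reached by 20.8% of all genes tested, and by 1, 0, 1 and 3 genes in these groups in turn. The smallest p in each was that of the GAP Rasal1 (log2 fold change 0.71, adjusted p = 0.131), of Ralgds, an exchange factor for Ral that Ras recruits (1.36, adjusted p = 0.242), of the RAF scaffold Ksr1 (-2.17, adjusted p = 0.228) and of the receptor Epha2 (1.47, adjusted p = 0.112), all by edgeR. Ksr1 had 18, 63 and 10 counts in shNS replicates 1, 2 and 3 and 15, 7 and 1 in shDis3l2, with overlapping groups. Without shNS replicate 2 its log2 fold change was -1.09. Of the 10 genes left untested, 2 were seen mainly in shNS replicate 2 and in shNS without doxycycline. The GAP Dab2ip had 164 and 97 counts there (4.80 and 2.66 CPM) and 0 in the other 6 libraries. Rasgrp2, a calcium-regulated exchange factor for Rap, had 96 and 149 counts (2.81 and 4.09 CPM) and at most 4 elsewhere. The ERK targets did not move one way: 5 of 12 had a positive fold change, and their median was -0.16. Over all genes DESeq2 called 1790, against 845 by edgeR. Of the 57 list genes with a DESeq2 result 9 passed, 3 higher and 6 lower. Among them were Ralgds (DESeq2 adjusted p = 0.0429) and Epha2 (0.0340). The share of all genes that DESeq2 called is not given here, so nothing is read from the 9. Epha2 also passed by edgeR without shNS replicate 2 (2.03, adjusted p = 0.0297). In the pair of libraries without doxycycline Epha2 went the other way, at 7.19 CPM in shNS and 3.23 CPM in shDis3l2 (ratio 0.449, 0.360 to 0.557).

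**Figure D4:**
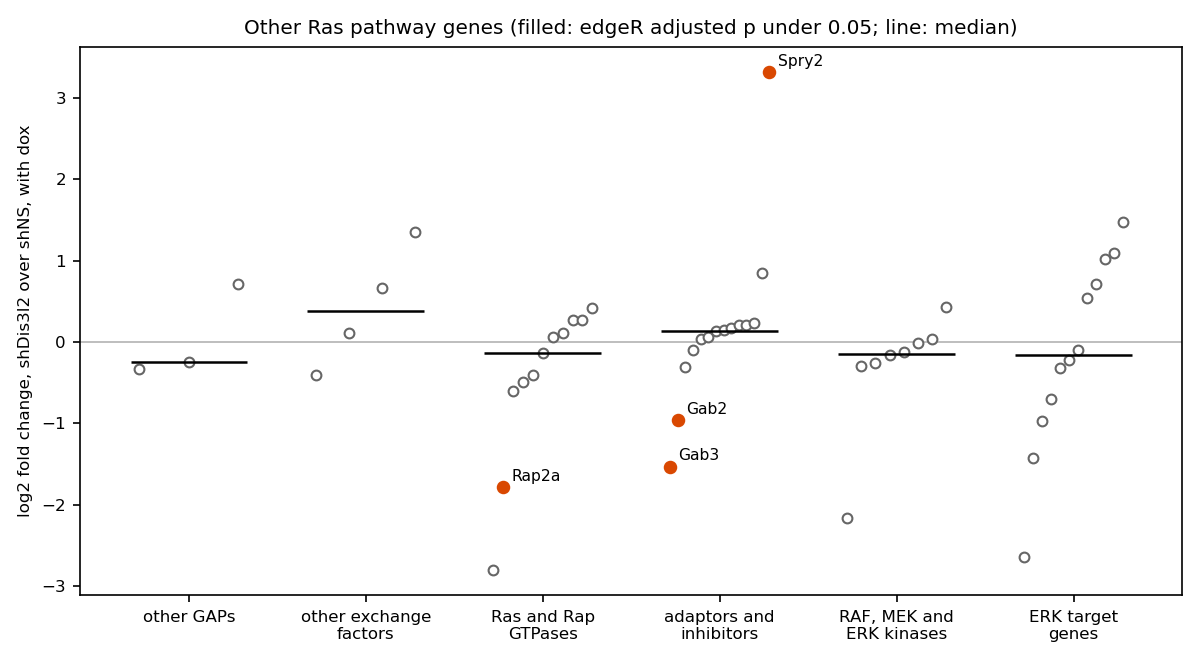
Log2 fold change (shDis3l2 over shNS, with doxycycline) of the 52 other Ras pathway genes tested, by function. Filled points passed edgeR's test at an adjusted p under 0.05, and horizontal lines are medians. Spry2 (3.32) stands above, and Rap2a (-1.78), Gab3 (-1.53) and Gab2 (-0.96) fell, while every group has open points on both sides of 0, down to -2.81 for Mras (adjusted p = 0.141).

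The genes whose log2 CPM followed Rasal3 most closely over the 8 libraries were Slc9a7, a sodium and proton exchanger of the Golgi (r = 0.992), Xkr5 (r = 0.991, 7.36 to 8.90 CPM in shDis3l2) and Umodl1 (r = 0.9896). Slc9a7 and Xkr5 had no count in any shNS library. Slc9a7 was at 19.9, 25.9 and 22.7 CPM in shDis3l2 with doxycycline and 17.7 CPM without. Umodl1 (chromosome 17, 30954640 to 31010710, plus strand) lies within 5 Mb of Rasal3, and was at 145, 133 and 82.9 CPM in shDis3l2 with doxycycline and 85.5 CPM without, beside 1 count in all of the shNS libraries. Those most like Kndc1 were Arrdc4, an arrestin-like protein (r = 0.998), the kinesin Kif13a (r = 0.997) and the fatty acid carrier Fabp5 (r = 0.996). Arrdc4 was at 10.9, 6.97 and 7.71 CPM in shNS replicates 1, 2 and 3, with the highest value in replicate 1 as for Kndc1, and had no count in shDis3l2. Fabp5 was at 140 ± 13.1 CPM in shNS and 5.67 ± 0.860 CPM in shDis3l2 with doxycycline (SD, n = 3). These correlations are set by the split between the lines, which all points of 1 line share, and describe the pattern only.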

How the data were processed

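Per the labels' protocols, RNA depleted of ribosomal RNA was made into stranded libraries and sequenced as read pairs. Tools named in the submitters' processing notes are cutadapt, STAR 2.7 and RSEM; builds named there are GRCm38 and mm10; annotation release and strand setting: not given in the sources used here. Per gene, the authors deposited RSEM's expected counts, not normalized. All 55450 identifiers matched GENCODE M21. Counts were rounded (4.68 to 5.24% of values were not whole), filtered with filterByExpr (minimum count 10), scaled by TMM and tested with edgeR 4.0.16's robust quasi-likelihood test in R 4.3.3, with Benjamini-Hochberg adjustment over all genes and a threshold of 0.05; DESeq2 1.42.0 was an alternative. The line difference used 6 libraries and 13752 genes. Doxycycline effects used all 8 libraries and 15250 genes, each lone library being assumed to vary like the others. The script was tested on simulated counts. Log2 ratios without doxycycline used a prior count of 2. RPKM used the union of a gene's exons. Count ratios have exact 95% intervals (conditional binomial). Replicates differed by more than counting noise in every pair (chi-square per gene at least 18.1).

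The members and gene lists were chosen with earlier results of these data known, and the motifs and 5 Mb windows after the data were seen. Named were all 10 members and Dis3l2; in each pathway group every called gene (at most 4), or that with the smallest p; the 3 genes with a mean count of at least 50 most correlated with Rasal3 and with Kndc1; and their 3 nearest protein-coding genes on each side. CT485616.1, Evi2a, Evi2b, Ccnh, Adgre1, Csf1r, Itgam, S100a8, Dab2ip, Rasgrp2 and Mras were named after their values were seen.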

Additional observations from a re-analysis of the deposited data

How the results depend on the processing

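The line difference with doxycycline gave 845 calls, against 1790 by DESeq2, 421 with the replicate number as a block, and 203 to 1157 when 1 library was left out (464, 203 and 259 without shDis3l2 replicates 1, 2 and 3). The pathway list gave 4 calls, against 9 by DESeq2, 2 with the replicate block (Gab2 and Gab3 were lost, edgeR adjusted p = 0.0607 and 0.126) and 1 to 7 when 1 library was left out (1 without any shDis3l2 replicate, 7 without shNS replicate 3). Replicate numbers did not pair the libraries: deviations of same-numbered libraries correlated at -0.13, 0.03 and -0.01. The doxycycline effects gave 0 calls by edgeR. In shNS there were 2 without a low-count filter, 74 by DESeq2 and 0 to 544 when 1 library was left out (544 without shNS replicate 2). In shDis3l2 there were 61 by DESeq2 and 0 to 0 when 1 library was left out. For their difference there were 2 without the filter, 37 by DESeq2 and 0 to 121 when 1 library was left out (121 without shNS replicate 2). No member was called for the effect in shNS in any of these fits. For the effect in shDis3l2 and the difference, none of the 9 members other than Kndc1 was called. The smallest adjusted p in all of these was 0.117, by edgeR. Kndc1, with 3 counts in shDis3l2, was fitted but left out of the summary of the effect in shDis3l2 and the difference. The direction of small doxycycline effects turned when 1 library was left out for Rasa1 in shNS (-0.017 to 0.35), Nf1 in shNS (-0.012 to 0.10), Rasa3 in shDis3l2 (-0.062 to 0.27), and Rasa3 (-0.39 to 0.013) and Sos1 (-0.0555 to 0.17) for the difference. Between the lines, 108 of 110 alternative values of the members moved by less than the spread between replicates, with Sos2 on both sides of 0 (-0.010 to 0.21 when 1 library was left out). The exceptions were Rasal3 without shNS replicate 3 (8.60) and Kndc1 without shDis3l2 replicate 1 (-12.55), which both rest on few counts in the low group. Without length correction Rasal3's mean share of the GAPs in shDis3l2 was 4.38% in place of 7.29%, and Kndc1's of the exchange factors in shNS 26.1% in place of 18.9%, since lengths differ. No replicate block was possible for the doxycycline effects, because the libraries without doxycycline carry no number. The other causes were not tested.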
